A study of Mus musculus with 39 samples.

Results

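The livers described here test whether loss of PPARα alters the response to Wy14,643. The comparison is the Wy14,643 response of PPARα-null mice minus the Wy14,643 response of wild-type mice, where each response is drug minus vehicle within 1 genotype. Its members were chosen by genotype and treatment labels alone, and are 15 of the 39 liver arrays of the series. They comprise 4 arrays of PPARα-null mice given 50 mg/kg Wy14,643, 4 of PPARα-null mice given the vehicle, 4 of wild-type mice given 50 mg/kg Wy14,643 and 3 of wild-type mice given the vehicle. All mice were adult males of the 129SV background, the vehicle was 0.5% methylcellulose for every one of these groups, and dosing was by gavage on 7 consecutive days. The labels neither describe the null allele nor say whether wild-type mice were littermates. The other 24 arrays come from mice of both genotypes given PFOA (perfluorooctanoic acid, as its ammonium salt) or water.

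PPARα is a nuclear receptor that binds fatty acids and their derivatives. In liver it pairs with the retinoid X receptor on DNA and activates genes for fatty acid uptake, peroxisomal and mitochondrial beta-oxidation, omega-oxidation and ketogenesis. Wy14,643 (pirinixic acid) is a synthetic activator of this receptor, and in rodents such compounds are known as peroxisome proliferators. In what follows, a negative genotype difference means that the response to the drug was lower in null than in wild-type liver, and a positive one that it was higher. All are on the log2 scale.

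Each array gave a log2 signal, with the same distribution on every array, for most of 33012 probes. Of these, 28199 had a value on all 15 arrays and were tested with limma. A probe was called at a Benjamini-Hochberg adjusted p under 0.05 over all 28199. Errors of group means are standard deviations (n = 4, or 3 for wild type on methylcellulose) and errors of differences are standard errors of the fit. The 7 measured hepatocyte markers averaged between 19.56 and 20.40 on each array, near the top of the scale of 4.85 to 21.55, so the tissue label was borne out. The arrays also separated by their genotype labels on Cox6b2, a cytochrome c oxidase subunit best known from testis. It read 6.91 to 8.44 on the 8 null arrays, 14.11 to 14.51 in wild-type livers on methylcellulose and 16.21 to 17.19 in wild-type livers on Wy14,643. Cox6b2 was chosen with earlier results of these data known, so it is not an independent check of the labels. Its genotype difference of -2.29 was not called (adjusted p = 0.0926). The Ppara probe read 15.58 to 16.06 in null livers on Wy14,643, 15.86 to 16.29 in null livers on methylcellulose, 16.07 to 16.78 in wild-type livers on Wy14,643 and 16.37 to 16.84 in wild-type livers on methylcellulose, so it detected a transcript in null mice and checks nothing. The arrays also fell into a pair of sets that no label records, separated by 84 probes with a median difference of log2 4.44. Replicates 1 and 4 of null mice on Wy14,643 and replicate 1 of each methylcellulose group belonged to the smaller set, and all 4 wild-type arrays on Wy14,643 to the larger.

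The genotype difference was called for 37 probes (0.131%), 28 lower (0.0993% of those tested) and 9 higher (0.0319%), each by more than 2-fold. The Wy14,643 response itself was called for 0 probes in null livers, where 963 had an unadjusted p under 0.05. In wild-type livers it was called for 501 (1.78%), of which 294 rose (1.04%) and 207 fell (0.734%). The 28 probes with a lower difference had a median response of 0.04 in null livers and 3.41 in wild-type livers, and a median difference of -0.13 between the genotypes on methylcellulose. The 9 with a higher difference had median responses of 0.26 in null livers and -2.13 in wild-type livers. These probes cover 27 named genes, 20 lower and 7 higher, and 22 of them passed the rule for naming. For all 22, no wild-type array on Wy14,643 overlapped those on methylcellulose, and the null groups overlapped in every case. The 22 were chosen by the genotype difference on these same arrays, which favours such a pattern in advance. Among the 527 genes named or in the gene lists, the wild-type groups were apart for 208 and the null groups for 8. These genes were picked, and the share over all tested genes was not counted. The wild-type count compares 4 arrays with 3, and the null count 4 with 4. Separation by chance is therefore likelier in wild type, so the counts are not alike. In 21 of the 22 the 95% interval of the null response included 0. Rcan2 was the exception, at -0.61 (-1.15 to -0.06), and its null response was not called.

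Among the levels themselves, null livers differed from wild-type livers on Wy14,643 for 819 probes (2.9%), 465 lower (1.65%) and 354 higher (1.26%), and on methylcellulose for 28, 21 lower (0.0745%) and 7 higher (0.0248%). All 22 named genes were called in the first of these comparisons and 0 in the second. The genotype difference that chose these genes is the first comparison minus the second on the same arrays, which favours that outcome in advance. The counts of called probes depend on the arrays that enter. Without wild-type Wy14,643 replicate 1 the genotype difference was called for 158 probes, and without wild-type methylcellulose replicate 1 for 21; leaving out any of the other arrays gave 25 to 47. With the array set as a block 24 probes were called, and with the 11 arrays of the larger set only, 6. When 38 arrays of the series estimated the spread together, without the PFOA 1 mg/kg array whose genotype label is in doubt, 435 were called, 213 lower and 222 higher, and all 37 were among them. The share of lower calls was therefore larger among the probes called on 15 arrays than in that wider fit. The null response was called for 0 probes under every one of these settings.

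**Figure D1:**
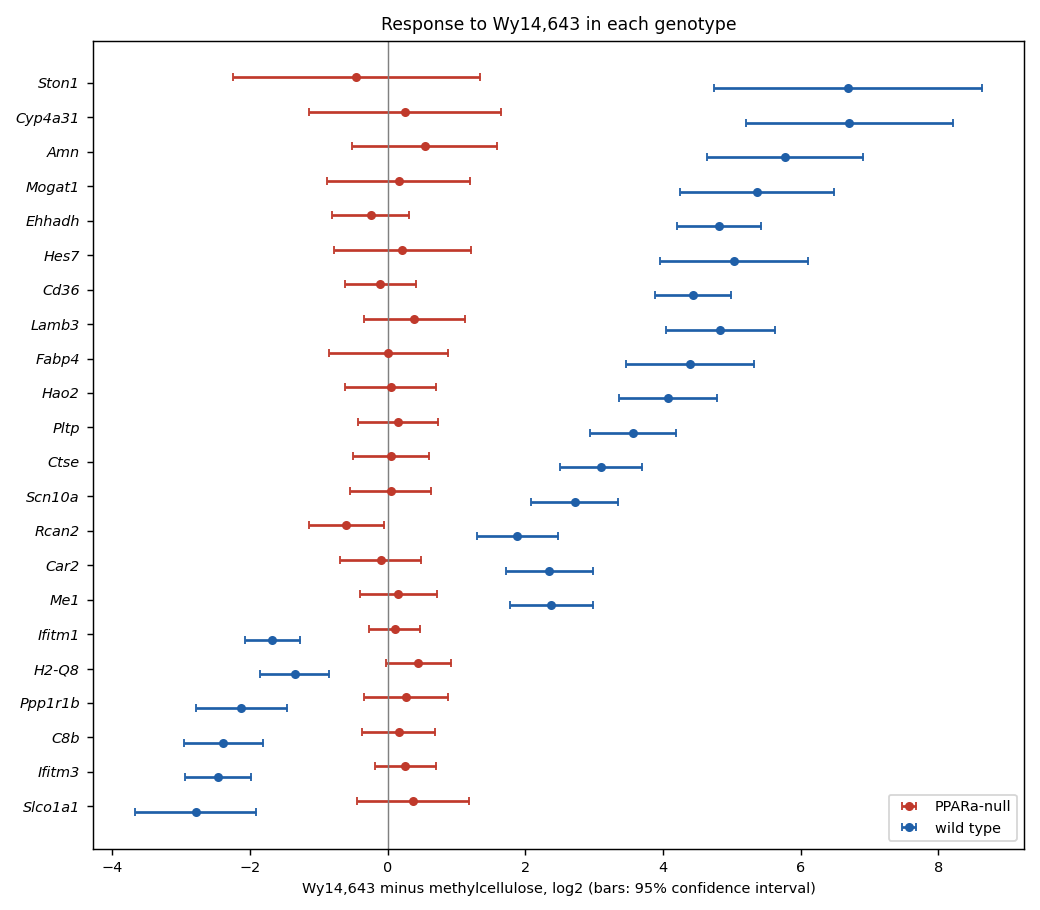
Response to Wy14,643 (drug minus methylcellulose, log2, horizontal axis) of the 22 named genes with a called genotype difference, in PPARα-null livers (red) and wild-type livers (blue). Points are the fitted responses and bars their 95% confidence intervals. The null responses lie between -0.61 and 0.53, and the wild-type responses lie away from 0, positive for 16 genes and negative for 6.

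The genes of fatty acid handling hold the most clearly separated members. Ehhadh, the peroxisomal bifunctional enzyme that carries out the middle steps of beta-oxidation, read 16.27, 16.04, 15.88 and 15.37 in null livers on Wy14,643 and 15.72, 15.83, 16.27 and 16.75 in null livers on methylcellulose. In wild-type livers it read 20.28, 20.49, 20.84 and 20.74 on Wy14,643 and 15.49, 15.83 and 16.02 on methylcellulose. The 4 wild-type Wy14,643 arrays stood apart from the other 11, which all overlapped. The null response was -0.25 (95% interval -0.81 to 0.31) and the wild-type response 4.81 ± 0.28, so that the genotype difference was -5.06 ± 0.39, or 33.3-fold (adjusted p = 5.67e-05).

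Cd36, the plasma membrane translocase that takes up fatty acids, behaved likewise. It read 12.79, 13.18, 12.54 and 12.80 in null livers on Wy14,643 and 13.24, 12.55, 13.26 and 12.70 on methylcellulose, against 17.06, 17.16, 17.80 and 17.20 in wild-type livers on Wy14,643 and 12.59, 13.16 and 12.86 on methylcellulose. No group but wild type on Wy14,643 exceeded 13.26. The genotype difference was -4.54 ± 0.35, or 23.2-fold (adjusted p = 5.67e-05). Pltp, the phospholipid transfer protein that moves phospholipid between lipoproteins, read 11.76 to 12.65 in null livers on Wy14,643, 11.53 to 12.46 on methylcellulose, 15.22 to 16.08 in wild-type livers on Wy14,643 and 11.83 to 12.27 on methylcellulose, a genotype difference of -3.42 ± 0.40 (adjusted p = 0.0025). Ehhadh, Cd36 and Pltp were the only named genes called under all 28 other models, filters and subsets of arrays tried at the same threshold.

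PPARα binds direct repeats of the half-site AGGTCA spaced by 1 base (DR1), and for that reason the promoters of the called genes were searched. From 250 bases before to 50 after each RefSeq start (GRCm38.p6), both strands were searched for AGGTCA, any base and AGGTCA again, and for the looser form in which each half-site reads AGGNCA, which includes every match of the first. Of the genes called lower, 15 had a promoter in the table (23 promoters) and 0 held either form, and 0 of the 5 genes called higher did. Among the 10093 tested genes with a promoter, 0.0694% held the first form and 0.426% the second. With 1 mismatch allowed in the looser form, 1 of the 15 lower genes (6.67%) and 1 of the 5 higher genes had a match, against 5% of all tested genes, a share near the background for the lower genes. The matches were in Cd36 and in Slco1a1, and their promoters are shown because they belong to called genes that moved in opposite directions. The Cd36 window is chr5:17835847-17836146 on the minus strand, with the match in capitals; the motif lies on the strand opposite to the gene.
Cd36: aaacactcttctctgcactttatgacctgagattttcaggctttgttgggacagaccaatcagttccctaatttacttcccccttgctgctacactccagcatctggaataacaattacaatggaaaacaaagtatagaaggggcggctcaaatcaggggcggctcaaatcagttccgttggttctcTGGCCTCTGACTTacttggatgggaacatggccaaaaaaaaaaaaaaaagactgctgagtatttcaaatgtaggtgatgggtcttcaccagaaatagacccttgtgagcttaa
The Slco1a1 window is chr6:141946913-141947212, also on the minus strand, and its match is likewise on the strand opposite to the gene.
Slco1a1: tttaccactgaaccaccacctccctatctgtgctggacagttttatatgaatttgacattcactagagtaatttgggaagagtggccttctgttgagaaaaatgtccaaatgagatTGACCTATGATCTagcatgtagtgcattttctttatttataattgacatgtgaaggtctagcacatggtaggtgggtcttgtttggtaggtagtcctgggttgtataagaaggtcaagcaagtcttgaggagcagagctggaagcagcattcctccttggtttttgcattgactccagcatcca
The matches begin 63 and 134 bases before the start sites of Cd36 and Slco1a1. A match describes these letters only, and binding was not measured.

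The uptake and activation list had the largest number of members that rose in wild-type livers among the lipid lists apart from cholesterol synthesis, which had as many. Of 16 measured genes, 7 rose in wild type (1.32% of all tested genes rose), 0 changed in null livers and 2 had a called lower genotype difference (0.152% of all tested genes did). The median genotype difference over the list was -1.18, with a null median of 0.06 and a wild-type median of 1.30, beside 0.08, 0.03 and -0.04 over all 12463 tested genes. Fabp4, a fatty acid binding protein of adipocytes and macrophages, was the second called member. It read 12.56, 12.99, 12.90 and 12.78 in null livers on Wy14,643, 13.01, 12.73, 12.82 and 12.62 on methylcellulose, 15.73, 17.25, 18.47 and 17.07 in wild-type livers on Wy14,643 and 12.77, 12.85 and 12.59 on methylcellulose. Its genotype difference of -4.38 ± 0.59 (adjusted p = 0.0104) came from 4 wild-type arrays that spread over more than 2 log2 units. Fabp4 also belongs to the adipocyte markers, and the other 3 measured adipocyte markers were not called in either response. Slc27a1, a fatty acid transport protein, read 9.79 to 10.31 in null livers on Wy14,643, 10.17 to 10.87 on methylcellulose, 12.93 to 15.60 in wild-type livers on Wy14,643 and 10.64 to 10.79 on methylcellulose. Its difference of -3.49 ± 0.64 did not pass (adjusted p = 0.0567), but passed without wild-type Wy14,643 replicate 3 (-2.91, adjusted p = 0.0034), the array that read 15.60.

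In the peroxisomal beta-oxidation list, 3 of 19 measured genes rose in wild-type livers (1.32% of all tested genes rose) and 0 in null livers. Ehhadh alone had a called genotype difference (0.152% of all tested genes were called lower). The list's median genotype difference was -0.76. Ech1, the dienoyl-CoA isomerase of peroxisomes and mitochondria, rose by 1.71 ± 0.28 in wild-type livers (adjusted p = 0.00892), with 0.05 (-0.51 to 0.60) in null livers. The genotype difference of -1.66 ± 0.38 missed the threshold (adjusted p = 0.105). Ech1 was already lower in null than in wild-type livers on methylcellulose, by -1.77 (adjusted p = 0.0334), so that the genotypes differed by -3.43 on Wy14,643. Acaa1b, the peroxisomal thiolase that ends the beta-oxidation cycle, had 18.53 to 19.19 in null livers on Wy14,643, 18.25 to 18.96 in null livers on methylcellulose, 20.97 to 21.32 in wild-type livers on Wy14,643 and 19.79 to 19.97 in wild-type livers on methylcellulose. Its genotype difference was -1.09 ± 0.31 (adjusted p = 0.179), and the null and wild-type vehicle groups were already apart by -1.27 (adjusted p = 0.0574). The wild-type Wy14,643 values lie close to the highest signal on any array, 21.55, and how far the scale compresses there was not tested. None of the 12 measured peroxins, which build and divide peroxisomes, was called in any of the responses, and their median genotype difference was -0.21.

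**Figure D2:**
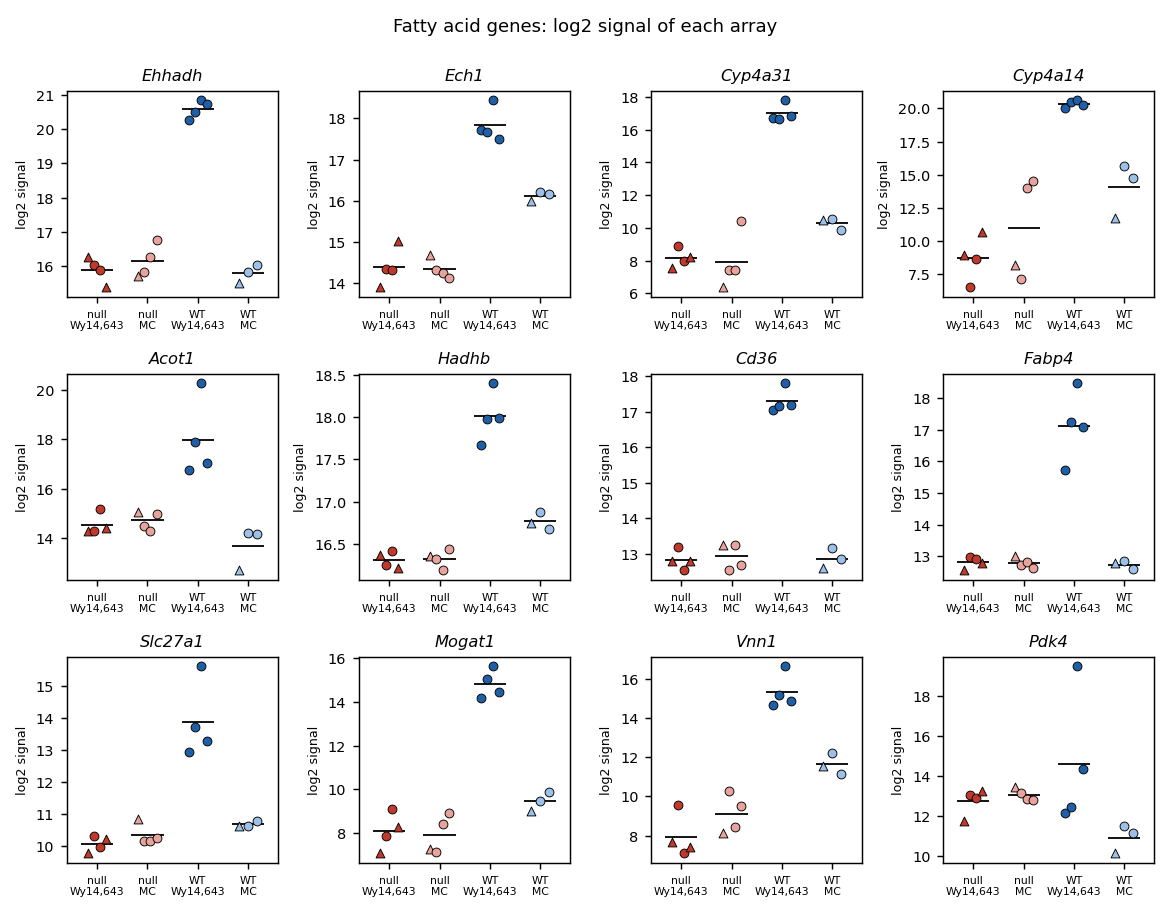
Log2 signal (vertical axis) of each array for 12 genes of fatty acid handling, in PPARα-null livers on Wy14,643 and on methylcellulose (MC) and in wild-type (WT) livers on Wy14,643 and on MC. Lines are group means, triangles mark arrays of the smaller array set. For Ehhadh and Cd36 the wild-type Wy14,643 arrays stand above the rest of the arrays, and for Pdk4 1 of them, at 19.51, lies far above the other 3.

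Among the omega-hydroxylases, which oxidise the far end of fatty acids, Cyp4a31 read 7.56, 8.89, 7.95 and 8.22 in null livers on Wy14,643 and 6.36, 7.43, 7.41 and 10.43 on methylcellulose. In wild-type livers it read 16.70, 16.67, 17.79 and 16.81 on Wy14,643 and 10.48, 10.54 and 9.85 on methylcellulose. The difference was -6.46 ± 0.96 (adjusted p = 0.0143; 0.0518 without wild-type methylcellulose replicate 3). Both null groups (means 8.15 and 7.91) lay below the mean signal of genes that liver does not express, 8.75 to 9.23 over the 15 arrays, so no fold is given. Cyp4a genes resemble each other closely, so the probe may read more than 1 of them. Cyp4a14, a close relative of Cyp4a31, had the most negative difference of any gene named, -8.53 ± 2.20, but it was not called (adjusted p = 0.142). It read 8.97, 6.53, 8.70 and 10.72 in null livers on Wy14,643 and 8.21, 7.15, 13.97 and 14.54 in null livers on methylcellulose, and both vehicle groups were wide, with 11.73, 15.66 and 14.76 in wild type. The wild-type Wy14,643 arrays, at 20.06 to 20.60, were all above every other array. Cyp4f14, which hydroxylates leukotrienes and fatty acids, went the other way, falling in wild-type livers by 1.71 ± 0.40 on the log2 scale (adjusted p = 0.0478), with 0.03 (-0.77 to 0.82) in null livers. The 11 measured members of the list had a median genotype difference of 0.11.

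Of 17 measured genes of mitochondrial beta-oxidation and ketogenesis, 5 rose in wild-type livers (1.32% of all tested genes rose) and 0 in null livers. The genotype difference was called for 0 of the 17, with a median of -0.84. Hadhb, the beta subunit of the trifunctional protein, differed by -1.25 ± 0.25 (adjusted p = 0.0776), Decr1, the dienoyl-CoA reductase for unsaturated chains, by -1.48 ± 0.31 (adjusted p = 0.0852) and Acadl, long-chain acyl-CoA dehydrogenase, by -1.53 ± 0.37 (adjusted p = 0.12). For each of the 3, the wild-type Wy14,643 arrays did not overlap the other groups. In the fit over 38 arrays 6 of the 17 were called lower (0.838% of all probes were). Cpt1a, which admits long-chain acyl groups to mitochondria, differed by -0.13 ± 0.85, an error too wide to show a difference of several fold. Its probe read 7.22 to 10.14 over the 15 arrays. These values lie around the mean signal of genes that liver does not express, 8.75 to 9.23, so the probe says little about Cpt1a. Of 12 acyl-CoA thioesterases, which free fatty acids from CoA, Acot1 and Acot8 rose in wild type (1.32% of all tested genes rose). The genotype difference was called for 0 of the 12. Acot1 read 14.30, 14.30, 15.17 and 14.42 in null livers on Wy14,643, 14.31 to 15.08 on methylcellulose, 16.78, 17.88, 20.27 and 17.04 in wild-type livers on Wy14,643 and 12.71, 14.23 and 14.18 on methylcellulose. Its difference was -4.47 ± 0.90 (adjusted p = 0.0767), and -3.71 (adjusted p = 0.0272) without wild-type Wy14,643 replicate 3.

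Lipid storage and fasting genes showed the same wild-type array at an extreme. Mogat1, which makes diacylglycerol from monoacylglycerol, was called at -5.21 ± 0.71 (adjusted p = 0.0106), with null means of 8.08 on Wy14,643 and 7.93 on methylcellulose that also lay below that mean signal. It read 7.09 to 9.09 in null livers on Wy14,643, 7.14 to 8.91 on methylcellulose, 14.18 to 15.62 in wild-type livers on Wy14,643 and 9.01 to 9.86 on methylcellulose. It was 1 of 2 of the 21 storage genes that rose in wild type, with Mgll (1.32% of all tested genes rose). Of the 21 it alone had a called genotype difference (0.152% of all tested genes were called lower). Plin2, the coat protein of lipid droplets, was not called (-1.47 ± 0.67, adjusted p = 0.371). Pdk4, the kinase that shuts off pyruvate dehydrogenase in fasting, read 11.76, 13.03, 12.92 and 13.24 in null livers on Wy14,643 and 12.79 to 13.47 on methylcellulose. In wild-type livers it read 12.13, 12.44, 19.51 and 14.33 on Wy14,643 and 10.13, 11.50 and 11.11 on methylcellulose. The difference of -4.01 ± 1.72 (adjusted p = 0.344) was -2.38 without replicate 3, the array at 19.51. Wild-type Wy14,643 replicate 3 was the farthest of its group from the vehicle mean for 51 of the 75 named genes and for 17 of the 22 called ones. Fgf21, a hormone that liver releases in fasting, did not differ in its response beyond the error (-1.0 ± 0.95, adjusted p = 0.69), although its level was lower in null than in wild-type livers on Wy14,643 by -4.30 (adjusted p = 0.00208); on methylcellulose the difference in level was -3.30 (adjusted p = 0.115). Vnn1, the pantetheinase Vanin-1, differed by -4.87 ± 0.89 (adjusted p = 0.0548).

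Some genes of fatty acid synthesis and desaturation also rose in wild-type livers. Of 19 measured, 6 rose in wild type (1.32% of all tested genes rose) and 0 changed in null livers. The genotype difference was called lower for 1 (0.152% of all tested genes were), with a list median of -0.74. Me1, the malic enzyme that supplies NADPH for fatty acid synthesis, read 14.04, 14.48, 13.46 and 14.39 in null livers on Wy14,643, 13.87, 13.87, 13.81 and 14.20 on methylcellulose, 16.04, 16.60, 17.01 and 16.50 in wild-type livers on Wy14,643 and 14.46, 13.87 and 14.17 on methylcellulose. The difference was -2.22 ± 0.38 (adjusted p = 0.0427), a call lost on leaving out 13 of the 15 arrays one at a time (adjusted p up to 0.11). Scd1, the stearoyl-CoA desaturase, differed by -3.49 ± 0.67 (adjusted p = 0.0721) and Elovl5, an elongase of polyunsaturated chains, by -2.02 ± 0.45 (adjusted p = 0.1). In the cholesterol synthesis and uptake list, 7 of 12 measured genes rose in wild-type livers (1.32% of all tested genes rose), with a list median of 1.52. In null livers 0 were called, and the median was 0.55. The genotype difference was called for 0 of the 12 and had a median of -0.82. Hmgcs1, which makes HMG-CoA in the cytosol, rose in wild type by 2.64 ± 0.47 (adjusted p = 0.0138) and had 0.84 (-0.10 to 1.77) in null livers, a genotype difference of -1.80 ± 0.64 (adjusted p = 0.264). Among null livers on methylcellulose, replicate 4 was the lowest for Hmgcs1, at 15.22 against 16.64 to 17.60 on the others. It was also the lowest for Pmvk (14.35), Sc5d (17.19) and Mvd (11.58), which raises the null responses of these genes. For the genes of this list neither a null response of moderate size nor none at all was shown.

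**Figure D3:**
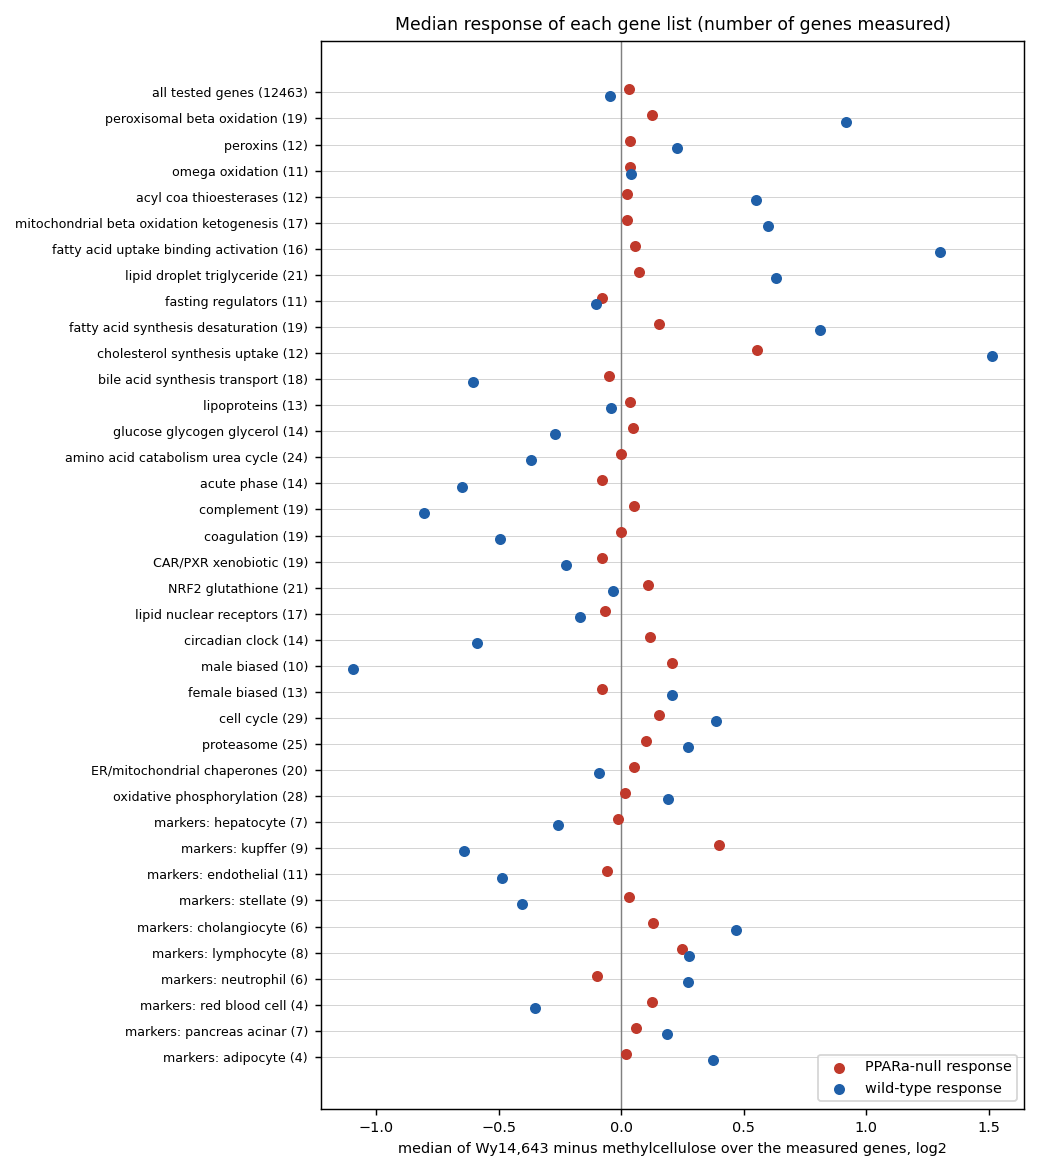
Median response to Wy14,643 (drug minus methylcellulose, log2, horizontal axis) over the measured genes of each list, in PPARα-null livers (red) and wild-type livers (blue), with the number of measured genes in brackets. The cholesterol list has the highest medians in both genotypes, 0.55 in null and 1.52 in wild-type livers, and the list of male-biased genes has the lowest in wild-type livers, -1.10. The null value of the cholesterol list includes methylcellulose replicate 4, the lowest null methylcellulose array for Hmgcs1, Pmvk, Sc5d and Mvd.

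Called genes outside the lipid lists were also apart in the wild-type Wy14,643 group. Ston1, the endocytic adaptor stonin 1, had the most negative called value, -7.14 ± 1.24 (adjusted p = 0.0427). It read 8.54, 7.32, 7.41 and 7.76 in null livers on Wy14,643, 6.55, 7.51, 8.89 and 9.89 on methylcellulose, 13.17, 16.38, 15.46 and 16.23 in wild-type livers on Wy14,643 and 7.06, 8.56 and 10.25 on methylcellulose. The groups other than wild type on Wy14,643 were wide and overlapped, and the call was lost on leaving out 12 of the 15 arrays one at a time (adjusted p up to 0.107). Amn, the partner of cubilin in vitamin B12 uptake, read 9.01, 7.97, 8.94 and 9.09 in null livers on Wy14,643, 8.05, 7.82, 8.21 and 8.77 on methylcellulose, 11.79, 12.97, 14.59 and 12.41 in wild-type livers on Wy14,643 and 7.76, 6.80 and 6.95 on methylcellulose. Its difference of -5.24 ± 0.72 (adjusted p = 0.0108) was called without any single array. Hes7, a transcriptional repressor known from the segmentation clock of the embryo, differed by -4.82 ± 0.68 (adjusted p = 0.0125). Wild-type livers on Wy14,643 read 15.30 to 16.01 for Hes7 and the other 11 arrays 9.01 to 11.60. Ston1, Amn and Hao2 averaged between 7.17 and 8.75 in every group but wild type on Wy14,643, no higher than the mean signal of genes that liver does not express, so the sizes of their differences are measured from background. Lamb3, the beta 3 chain of laminin, differed by -4.44 ± 0.50 and Hao2, a peroxisomal 2-hydroxy acid oxidase, by -4.03 ± 0.45 (adjusted p = 0.00206 for each).

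Ctse, the aspartic protease cathepsin E, read 13.43, 13.53, 13.53 and 13.55 in null livers on Wy14,643, 13.42, 13.62, 13.07 and 13.75 on methylcellulose, 17.63, 18.15, 18.46 and 17.68 in wild-type livers on Wy14,643 and 14.25, 15.22 and 15.19 on methylcellulose. The genotype difference was -3.05 ± 0.38 (adjusted p = 0.00456). The vehicle groups did not overlap either, at a difference of -1.42 that was not called (adjusted p = 0.0817). Scn10a, a voltage-gated sodium channel of sensory neurons, differed by -2.67 ± 0.40 (adjusted p = 0.0143), and the call was lost without wild-type methylcellulose replicate 1 (adjusted p = 0.0594) or 2 (0.0527). Rcan2, a regulator of calcineurin, differed by -2.49 ± 0.37 (adjusted p = 0.0143; 0.0607 without wild-type methylcellulose replicate 3). Car2, carbonic anhydrase 2, differed by -2.45 ± 0.40 (adjusted p = 0.0289), a call lost on leaving out 8 of the 15 arrays one at a time (adjusted p up to 0.0814). With the array set as a block, the calls of Rcan2 (adjusted p = 0.0524), Car2 (0.0673), Ston1 (0.0944), Me1 (0.0612), Slco1a1 (0.101), Ppp1r1b (0.0944) and H2-Q8 (0.0927) were lost, each at the same direction. Outside the naming rule, and chosen after their values were seen, Retsat, which saturates retinol, differed by -2.11 (adjusted p = 0.0463), Rdh16, a retinol dehydrogenase, by -1.80 (adjusted p = 0.0463) and Prxl2a, a peroxiredoxin-like protein, by -2.01 (adjusted p = 0.0143). With the 11 arrays of the larger set only, each of the 22 named genes kept its direction, and Ehhadh, Cd36 and Pltp were still called.

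The genes called higher fell in wild-type livers and were near their vehicle level in null livers. Ifitm3, an interferon-inducible membrane protein that restricts virus entry, read 19.31, 19.04, 19.28 and 19.28 in null livers on Wy14,643 and 19.22, 18.92, 18.70 and 19.08 on methylcellulose. In wild-type livers it read 16.48, 16.39, 15.85 and 15.83 on Wy14,643 and 18.91, 18.36 and 18.57 on methylcellulose. The null response was 0.25 (-0.19 to 0.70) and the wild-type response -2.47 ± 0.22, a genotype difference of 2.72 ± 0.30 (adjusted p = 0.00206). Ifitm1, of the same family, read 17.12 to 17.33 in null livers on Wy14,643, 16.84 to 17.35 on methylcellulose, 14.85 to 15.37 in wild-type livers on Wy14,643 and 16.64 to 16.88 on methylcellulose. It differed by 1.78 ± 0.25 (adjusted p = 0.0126; 0.0517 without wild-type methylcellulose replicate 1). H2-Q8, a class I histocompatibility gene whose probe may also read its close relatives, differed by 1.80 ± 0.32 (adjusted p = 0.0492), and Ppp1r1b, an inhibitor of protein phosphatase 1, by 2.40 ± 0.42 (adjusted p = 0.0463). Both calls were lost on leaving out most arrays one at a time, 13 of 15 for H2-Q8 (adjusted p up to 0.125) and 14 of 15 for Ppp1r1b (adjusted p up to 0.12).

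Some complement components, most of them proteins made mainly by hepatocytes, fell in wild-type livers. The list includes C1qa, C1qb and C1qc, which also count here as Kupffer cell markers. Of 19 measured genes, 6 fell in wild type (0.81% of all tested genes fell), 0 changed in null livers and 1 had a called higher genotype difference (0.0562% of all tested genes did). The median genotype difference was 1.00, with 0.05 in null and -0.81 in wild-type livers. C8b, the beta chain of complement 8, read 16.29, 16.42, 16.89 and 16.58 in null livers on Wy14,643, 16.57, 16.38, 16.33 and 16.26 on methylcellulose, 14.76, 14.09, 13.62 and 14.40 in wild-type livers on Wy14,643 and 17.03, 16.40 and 16.41 on methylcellulose. The difference was 2.55 ± 0.36, or 5.87-fold (adjusted p = 0.0126), and the wild-type Wy14,643 arrays lay below all others. C8a, the alpha chain, differed by 1.92 ± 0.41 (adjusted p = 0.0926) and C1ra, a protease of the classical pathway, by 1.42 ± 0.35 (adjusted p = 0.127). Under the 38-array fit 10 of the 19 complement genes were called higher (0.874% of all probes were). The lists of acute phase proteins, coagulation factors and urea cycle and amino acid enzymes had medians of 0.45, 0.52 and 0.33, with 0 genes called in either response or in the difference. Apoa4 and Apom, apolipoproteins of triglyceride-rich particles and of high-density lipoprotein, fell in wild type by 2.15 ± 0.37 and 1.35 ± 0.18, and their genotype differences of 2.33 and 1.36 were not called (adjusted p = 0.0924 and 0.0547).

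Of 10 measured genes that are higher in male than in female mouse liver, 4 fell in wild-type livers (0.81% of all tested genes fell) and 0 changed in null livers. The genotype difference was called higher for 2, C8b and Slco1a1 (0.0562% of all tested genes were), with a list median of 1.57. C8b is also the only call of the complement list. Slco1a1, an organic anion transporter of the hepatocyte membrane whose promoter is printed with that of Cd36, read 17.65, 17.49, 17.79 and 17.89 in null livers on Wy14,643 and 17.08, 17.27, 17.26 and 17.75 on methylcellulose. In wild-type livers it read 15.22, 15.01, 13.21 and 15.33 on Wy14,643 and 17.85, 17.27 and 17.33 on methylcellulose. Its difference of 3.16 ± 0.56 (adjusted p = 0.0487) was lost on leaving out 12 of the 15 arrays one at a time (adjusted p up to 0.135), and without wild-type Wy14,643 replicate 3, the array at 13.21, it was 2.66 (adjusted p = 0.0034). Hsd3b5, a steroid dehydrogenase of male liver, read 17.03, 17.12, 18.02 and 16.85 in null livers on Wy14,643, 15.93, 16.66, 17.91 and 17.00 on methylcellulose, 14.16, 12.95, 10.51 and 12.73 in wild-type livers on Wy14,643 and 18.05, 16.43 and 16.74 on methylcellulose. In wild type it fell by 4.49 ± 0.70 on the log2 scale (adjusted p = 0.00695), and its genotype difference of 4.87 ± 0.96 was not called (adjusted p = 0.0723). Of 13 genes higher in female liver, 1, Hao2, had a called lower difference (0.152% of all tested genes did).

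**Figure D4:**
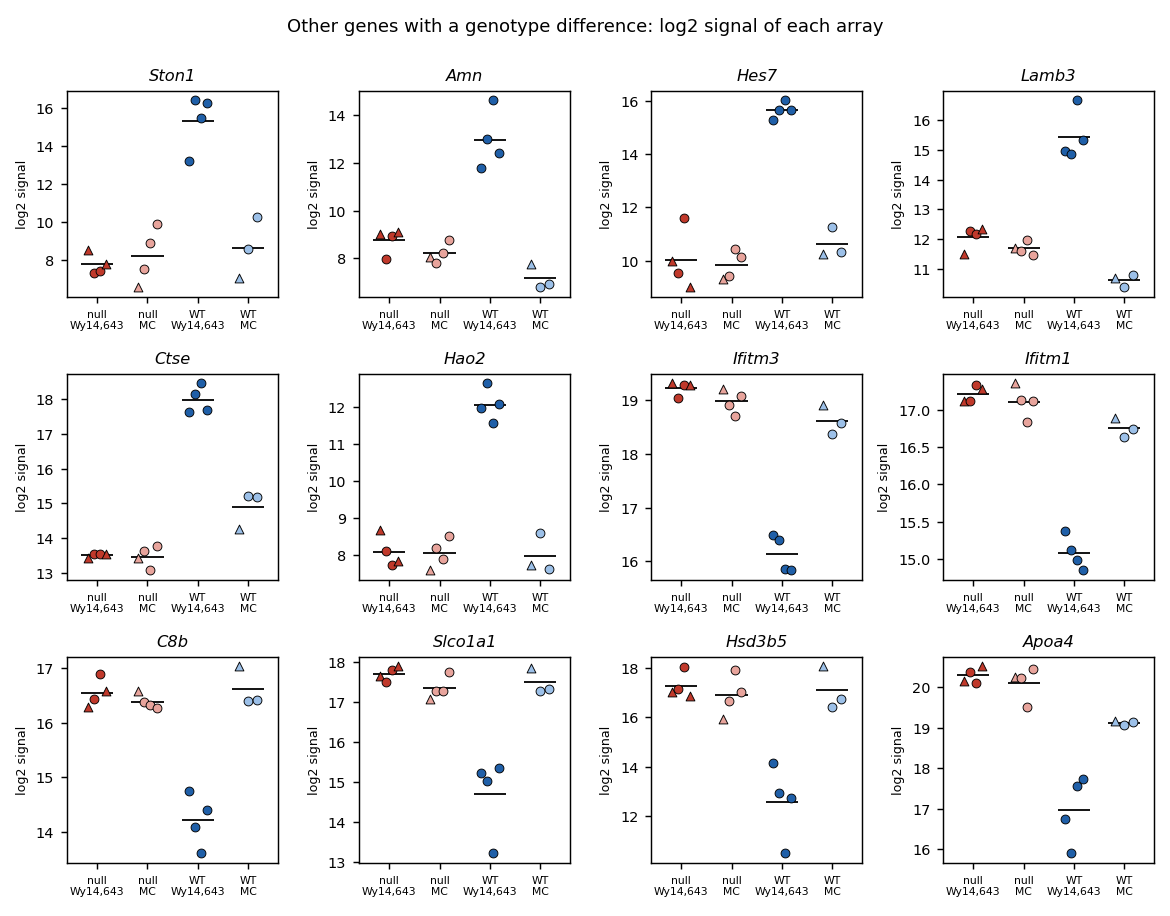
Log2 signal (vertical axis) of each array for 12 genes outside fatty acid oxidation, in PPARα-null livers on Wy14,643 and on methylcellulose (MC) and in wild-type (WT) livers on Wy14,643 and on MC. Lines are group means, triangles mark arrays of the smaller array set. The wild-type Wy14,643 arrays lie above all others for Ston1 and Amn and below all others for Ifitm3 and C8b, where they read 15.83 to 16.48 and 13.62 to 14.76.

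Of 29 measured cell cycle genes, 5 (Mcm5, Mcm6, Cdc20, Birc5 and Aurkb) rose in wild-type livers (1.32% of all tested genes rose) and 0 changed in null livers. The genotype difference was called for 0 of the 29, with a median of -0.36. Mcm5, a subunit of the replicative helicase, read 11.01, 11.11, 10.55 and 11.04 in null livers on Wy14,643, 10.83 to 11.39 on methylcellulose, 12.37, 13.31, 12.85 and 12.12 in wild-type livers on Wy14,643 and 11.04, 9.91 and 10.91 on methylcellulose, a difference of -2.17 ± 0.43 (adjusted p = 0.0754). Cdc20, an activator of the anaphase-promoting complex, read 13.76 on wild-type Wy14,643 replicate 2 and 10.46 to 11.38 on the other 3 arrays of that group. Tk1, thymidine kinase, read lower in wild-type livers on Wy14,643, at 6.74 to 9.45, than on methylcellulose, at 10.10 to 10.49, a response of -1.74 that was not called (adjusted p = 0.109). In the xenobiotic list, made of genes that the receptors CAR and PXR control, the genotype differences ran from -3.08 for Gadd45b to 1.91 for Cyp2c54. Cyp2c54 read 15.53 to 18.01 in wild-type livers on Wy14,643 and 18.42 to 19.02 on methylcellulose, and its difference was not called (adjusted p = 0.258). Cyp2b10 differed by -0.53 ± 0.88, Cyp2c55 by -0.09 ± 0.71 and Nr1i3, the receptor itself, by 0.15 ± 0.33. In either response or in the difference, 0 of the 19 genes of the list were called. On 38 arrays, 1 of 18 was called lower (0.838% of all probes were) and 1 higher (0.874%). The 25 proteasome subunits and 28 oxidative phosphorylation subunits had 0 calls and median differences of -0.22 and -0.21. The 14 clock genes had a median of 0.89 with 0 calls.

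Markers of other liver cells moved with these groups. The 9 measured Kupffer cell markers averaged 12.88 to 13.92 in null livers on Wy14,643 and 12.67 to 13.11 on methylcellulose, against 12.26 to 12.48 in wild-type livers on Wy14,643 and 12.81 to 13.07 on methylcellulose. The median genotype difference of the Kupffer markers was 1.02 with 0 of 9 called, and 5 of 9 were called higher in the 38-array fit (0.874% of all probes were). C1qa, C1qb and C1qc belong to both the Kupffer and the complement lists. The 6 cholangiocyte markers averaged 8.60 to 9.33 in null livers on Wy14,643, 8.57 to 9.35 on methylcellulose, 10.02 to 10.47 in wild-type livers on Wy14,643 and 9.08 to 9.80 on methylcellulose, and Krt23 was the member that rose in wild type. Endothelial, stellate, lymphocyte, neutrophil, red blood cell and acinar pancreas lists had 0 calls. On 38 arrays, 1 of 11 endothelial markers was called lower (0.838% of all probes were) and 1 higher (0.874%). In that fit 1 of 6 cholangiocyte and 1 of 3 adipocyte markers were also called lower, and 1 of 7 hepatocyte markers higher. In whole liver, fewer cells of a type and less RNA per cell cannot be told apart, and the part of these cells in the results was not tested. The 7 hepatocyte markers averaged 20.14 to 20.33 in null livers on Wy14,643 and 20.20 to 20.39 on methylcellulose. In wild-type livers they averaged 19.56 to 20.11 on Wy14,643 and 19.97 to 20.40 on methylcellulose, which overlap.

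The genotype difference in the response to 3 mg/kg PFOA was measured on 16 other liver arrays, 4 for each genotype on PFOA or water, and shares no array with the Wy14,643 values. The doses, vehicles and compounds differ. For PFOA 145 of 28893 probes (0.502%) were called, 120 lower (0.415%) and 25 higher (0.0865%). Of the 28 probes called lower for Wy14,643, 16 were also called lower for PFOA, which is 57.1% of the Wy14,643 list and 13.6% of the 118 lower PFOA calls tested in both. The medians over the 28 were -3.36 for Wy14,643 and -2.84 for PFOA, and 27 of the 28 had a negative PFOA value, as had 51.1% of all probes tested in both. Of the 9 probes called higher for Wy14,643, 2 were called higher for PFOA (22.2%, and 8.33% of the 24 PFOA calls) and 7 had the same sign. Ehhadh differed by -5.06 for Wy14,643 and -4.01 for PFOA, Cd36 by -4.54 and -4.27, Pltp by -3.42 and -3.88, and Ifitm3 by 2.7 and 2.0, all called for both compounds. Counted by gene, 5 of 19 peroxisomal, 3 of 16 uptake, 2 of 17 mitochondrial and 5 of 21 storage genes were called lower for PFOA (0.641% of 11848 genes were), and 0 of 19 fatty acid synthesis and 0 of 12 cholesterol genes. For Wy14,643 the same lists had 1, 2, 0, 1, 1 and 0 calls. Of the complement and male-biased lists, 1 and 2 genes were called higher for PFOA (0.127% of genes were).

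Several genes had smaller values for PFOA. Fabp4 differed by -4.38 ± 0.59 for Wy14,643 and by -0.68 ± 0.29 for PFOA (adjusted p = 0.491), Hao2 by -4.03 ± 0.45 and -0.99 ± 0.73, Rcan2 by -2.49 ± 0.37 and -0.29 ± 0.57, and H2-Q8 by 1.80 ± 0.32 and -0.02 ± 0.47. The test of whether the Wy14,643 and PFOA genotype differences themselves differed, on 26085 probes complete over 31 arrays, called 0 probes by limma, with 2875 at an unadjusted p under 0.05. Its adjusted p was 0.153 for Fabp4 and 0.387 for each of Hao2, Rcan2 and H2-Q8. Without wild-type Wy14,643 replicate 3 it called 3 probes, and without wild-type Wy14,643 replicate 1 it called 1. Cyp2c55 had -0.09 ± 0.71 for Wy14,643 and 2.34 ± 0.38 for PFOA (adjusted p = 0.00856), and the test between compounds gave an adjusted p of 0.387.

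**Figure D5:**
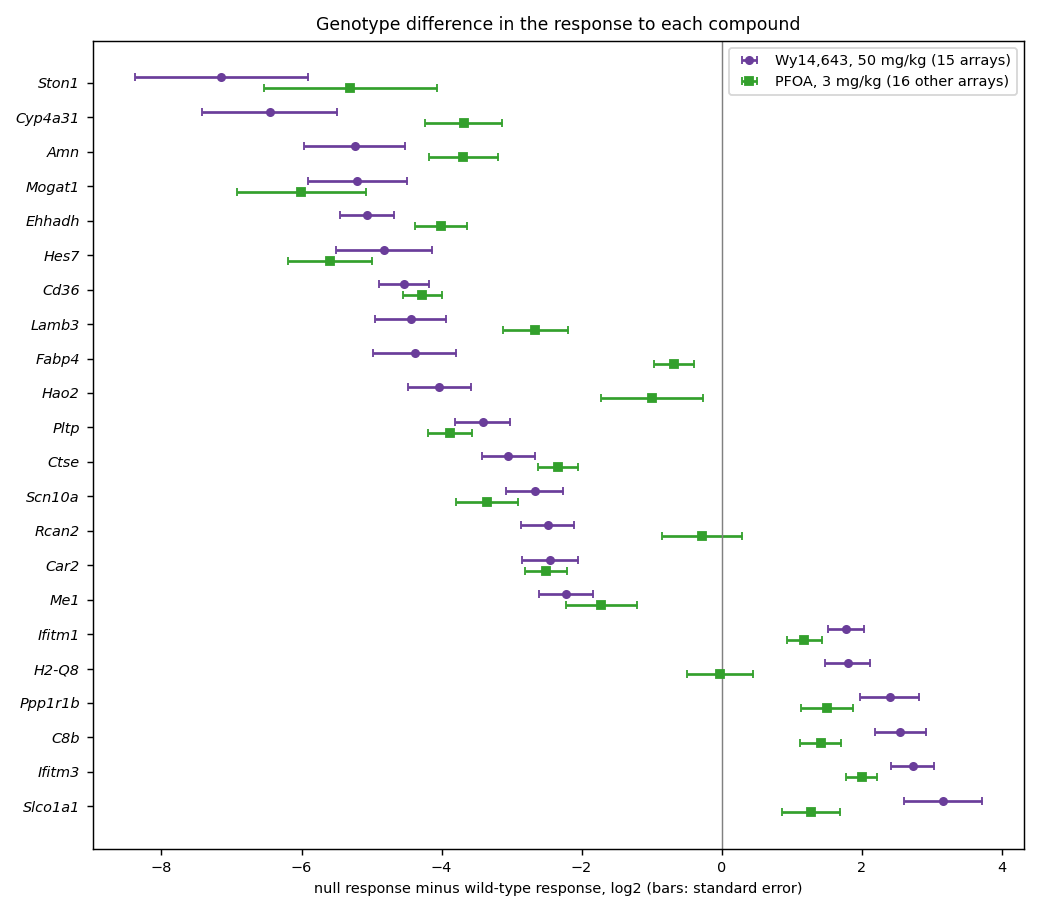
Genotype difference (null response minus wild-type response, log2, horizontal axis) for 50 mg/kg Wy14,643 (purple circles, 15 arrays) and 3 mg/kg PFOA (green squares, 16 other arrays), for the 22 named genes called for Wy14,643. Bars are standard errors. Fabp4, Hao2, Rcan2 and H2-Q8 lie nearer 0 for PFOA, at -0.68, -0.99, -0.29 and -0.02, and the test between compounds passed for none of the 22.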

How the data were processed

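Liver total RNA was labelled with digoxigenin and hybridised to 1-colour Applied Biosystems Mouse Genome Survey arrays. The deposited values are log2 signals, taken as log2 from their range (4.85 to 21.55) and read as quantile normalised because every array had the same quantiles (median 9.14); for the authors' software and background correction, and why some values are missing, the sources used here give nothing. With 3 or 4 arrays per group, array number limits precision.

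GEO's platform annotation gives 14411 of the 33012 probes a single gene symbol, 247 several and 18354 none. In the 15 arrays 1.37% of values are missing, and the 4813 probes with any missing value were left out (median signal 7.51, against 9.53 for the 28199 tested). A group-means model was fitted to the log2 values (limma 3.58.1, R 4.3.3), with moderated variances (11 residual and 2.93 prior degrees of freedom); p-values are two-sided and Benjamini-Hochberg adjusted over all tested probes of a contrast. The 15 arrays were fitted alone because 1 wild-type PFOA 1 mg/kg array goes against its genotype label. The PFOA 3 mg/kg difference was fitted on its own 16 arrays, and the difference between compounds on 31. The script was tested on simulated data.

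Named genes had 1 gene symbol, an adjusted p under 0.05 and a highest group mean above the median of all tested probes; up to 15 lowest and 15 highest by log2 difference were taken, 1 probe per gene (highest mean), passing over clone numbers. The rule also took 5 in each direction of the null response and of the compound test, which gave 0, up to 4 members of each of 14 gene lists with the smallest adjusted p, and a fixed set of PPARα and xenobiotic genes. Cyp4a10 had only a probe shared with other genes, so it has no value here. The members and lists were chosen with earlier results of these data known. Marker levels are means of log2 signals over a list. Promoters are RefSeq's (GRCm38.p6).

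Labels share replicate numbers between groups. Deviations from the group mean of same-numbered arrays correlated with a median of 0.029 (-0.199 to 0.28 over 21 pairs), against -0.026 for other pairs. These correlations showed no clear pairing but cannot exclude it, and the main fit used no block. Replicate 1 of each methylcellulose group and of null mice on the drug belonged to the smaller array set. So did replicate 4 of null mice on the drug. A block for the replicate number lowered the calls of the genotype difference from 37 to 16 probes. The design text gives 4 animals per group; 3 arrays of wild type on methylcellulose were analysed here. Alternatives were the array set and a silent-gene index (mean signal of 583 probes of genes that liver does not express) as terms, other sets of arrays, variance models, filters, scalings and thresholds, and leaving out each array.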

Additional observations from a re-analysis of the deposited data

Results flagged for a closer look

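The genotype difference in the Wy14,643 response is itself a test between groups, and it passed for 37 probes (145 for PFOA at 3 mg/kg). The named genes it holds for are Ston1 (-7.14), Cyp4a31 (-6.46), Amn (-5.24), Mogat1 (-5.21), Ehhadh (-5.06), Hes7 (-4.82), Cd36 (-4.54), Lamb3 (-4.44), Fabp4 (-4.38), Hao2 (-4.03), Pltp (-3.42), Ctse (-3.05), Scn10a (-2.67), Rcan2 (-2.49), Car2 (-2.45) and Me1 (-2.22) among the lower, and Slco1a1 (3.16), Ifitm3 (2.72), C8b (2.55), Ppp1r1b (2.40), H2-Q8 (1.80) and Ifitm1 (1.78) among the higher, all as log2 null response minus wild-type response.

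Single arrays stood far from the other 3 of their group, by Dixon's 95% criterion, in 15 of 225 groups tested (6.67%), where chance gives about 1 in 20. In null livers on Wy14,643 they were replicate 2 for Amn (7.97), Rcan2 (8.79), Ifitm3 (19.04) and Abcd2 (6.64), replicate 1 for Ctse (13.43) and replicate 3 for Acot1 (15.17). In null livers on methylcellulose they were replicate 1 for Rcan2 (9.18) and Slc27a1 (10.87) and replicate 4 for Me1 (14.20) and Pklr (15.24). In wild-type livers on Wy14,643 replicate 3 stood apart for Cyp4a31 (17.79), Slco1a1 (13.21) and Apoh (19.37), replicate 1 for Abcd2 (7.08) and replicate 4 for Ppara (16.07). For Ctse and Ifitm3 the other 3 arrays lay at 13.53 to 13.55 and 19.28 to 19.31, so a small gap sufficed. For the called genes among them, the null arrays that stood apart lay outside the range of the wild-type Wy14,643 group.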

How the results depend on the processing

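The genotype difference was called for 37 probes, and for 313 in a fit of all 39 arrays, 435 on 38 arrays, 447 on 39 arrays with array set and silent-gene index (chosen after seeing the data), 24 with array set as a block, 6 on the larger array set only, 177 with trended and robust variance, 159 with array weights, 191 with dim probes left out and 8 at adjusted p under 0.01. Leaving out 1 array gave 21 to 158. The wild-type response (501) was called for 1542, 1660, 1408, 309, 66, 996, 1223, 1274 and 94 probes under the same settings, for 300 with the silent-gene index, and for 161 to 1002 without 1 array; the lowest count was without methylcellulose replicate 1 and the highest without Wy14,643 replicate 1, and each of the 7 wild-type arrays moved the count by over 1.5 times. The null response was called for 0 in every case. The PFOA difference (145) was called for 92 with the silent-gene index, for 0 on the larger array set only, and for 113 to 171 without 1 array. The compound test gave 0 to 3 without 1 array. Scaling arrays again by quantiles or by the median gave 37 and 39 calls for the genotype difference. With the replicate number as a block, 16 probes were called for the genotype difference and 292 for the wild-type response, and all 16 were among the 37; of the 22 named genes 10 missed the threshold (adjusted p 0.0538 to 0.0993). The cause of these shifts was not tested, apart from the fewer arrays or probes that some settings hold.

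All 22 called named genes kept their direction under the settings run. The reversed values belong to genes near 0: Cpt1a at 0.23 (replicate block), 0.081 (array set) and 0.0043 (array weights), Ppara at 0.0072 (array set), 0.065 (array weights) and 0.0093 (39 arrays with both terms), Cyp2c55 at 0.096 (array set), and Cyp2b10 at 0.073 (silent-gene index) and 0.22 (39 arrays with both terms). Without 1 array, Ppara ranged over -0.22 to 0.089, Cpt1a over -0.54 to 0.44, Cyp2c55 over -0.63 to 0.24 and Nr1i3 over -0.012 to 0.32.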
